A study of Mus musculus with 3 samples.

Results

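The mouse genes for the replication-dependent histones are the subject here, read through H3K9ac in haematopoietic stem cells (HSCs). They were taken as every protein-coding gene record on chromosomes 3, 11 and 13 whose symbol starts with H1f, H2ac, H2bc, H3c or H4c and a digit. This gave 63 of 21887 protein-coding records, namely 6 genes of the linker histone H1, 17 of H2A, 16 of H2B, 12 of H3 and 12 of H4. They lay in 3 clusters, of 10 genes on chromosome 3 (96219885 to 96270192, mm10), and of 22 genes (21715711 to 22043658) and 31 genes (23531044 to 23934913) on chromosome 13. No record on chromosome 11 carried such a symbol.

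Replication-dependent histones package newly copied DNA, and their transcription is coupled to S phase of the cell cycle. Their genes are short and intronless, and their messages end in a stem-loop instead of a poly(A) tail. They are transcribed in nuclear bodies organised by the coactivator NPAT. H2A, H2B, H3 and H4 form the core of the nucleosome, around which DNA is wound, and H1 binds the linker DNA where it enters and leaves. H3K9ac, acetylation of lysine 9 of histone H3, marks active promoters and enhancers.

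Bone marrow HSCs of wild-type mice were profiled by CUT&Tag, in which an antibody to the mark guides a transposase that cuts out and tags the DNA nearby. There were 3 libraries, 1 per group: old HSC ABC and old HSC, both from mice of 18 to 24 months, and young HSC, from mice of 2 to 4 months, with 50000 sorted cells per assay. The labels do not spell out ABC, and the sources used here do not give the number of mice per library. The data were lists of summits, the single-base high points of the peaks called in each library, with 45386 summits for old HSC ABC, 108787 for old HSC and 33248 for young HSC. The peak names inside the lists went against the labels. Peaks labelled old HSC ABC were named after old HSC. Peaks labelled old HSC were named after old HSC ABC, and those labelled young HSC after a further old HSC sample. Libraries are named below by their labels, so every direction is that of the libraries as labelled. With a single library per group no test was possible, and no p-value is given.

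A gene was counted as marked when the list held an end summit, that is, a summit no more than 1 kb from the first or last base of its record. Marked were 19 of the 63 histone genes in old HSC ABC, 56 in old HSC and 19 in young HSC. These are 30.2% (95% Clopper-Pearson interval 19.2 to 43.0) in old HSC ABC, 88.9% (78.4 to 95.4) in old HSC and 30.2% (19.2 to 43.0) in young HSC. Of all protein-coding genes, 43.6% were marked in old HSC ABC, 56.9% in old HSC and 41.9% in young HSC. Among all protein-coding records under 1 kb the shares were lower, at 4.63% in old HSC ABC, 9.64% in old HSC and 3.87% in young HSC. This set includes all but 5 of the histone genes themselves. How the histone genes stand thus depends on the genes they are set against. They lay above the short records in each library. Against all genes they lay above in old HSC and below in old HSC ABC and young HSC, where the interval for young HSC covers the value of all genes. Of 10 neutrophil and monocyte genes, 7 were marked in old HSC ABC, 10 in old HSC and 7 in young HSC, and their part in the histone counts was not tested. The intervals cover counting error only. Neighbouring genes often share a summit, so the genes are not independent. More cells carrying the mark and more mark per cell cannot be told apart in such libraries.

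A longer list can mark more genes, so every list was also limited to its 33248 highest-scoring summits, the length of the shortest list. In these equal-length lists 15 histone genes (23.8%) were marked in old HSC ABC, 48 (76.2%) in old HSC and 19 (30.2%) in young HSC. All genes stood at 40.5% in old HSC ABC, 45.5% in old HSC and 41.9% in young HSC. The old HSC count stayed above that of both other libraries with the difference in list length removed.

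**Figure D1:**
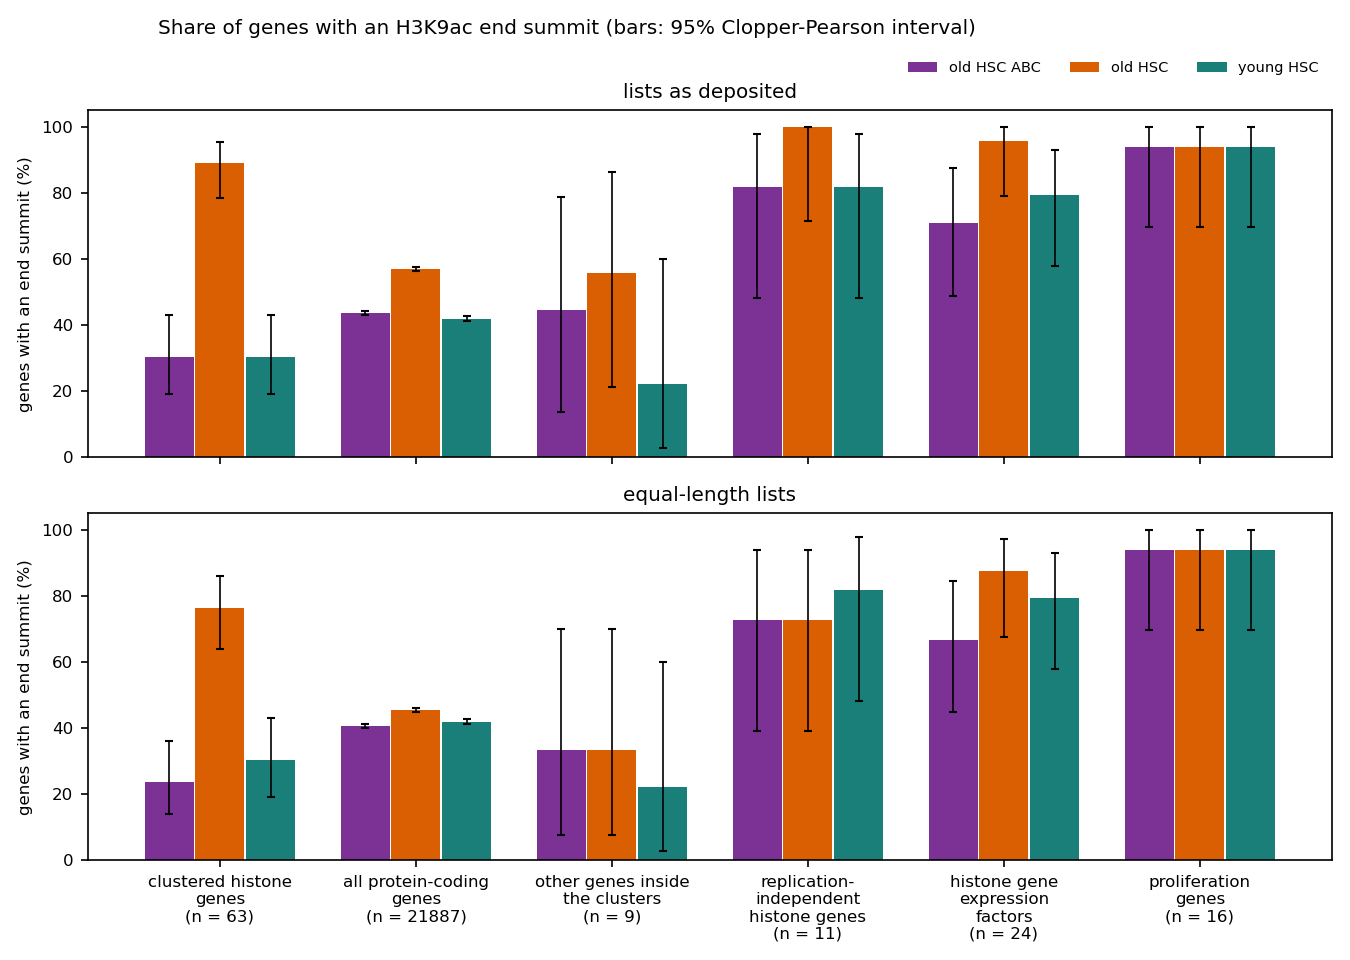
Share of genes with an H3K9ac end summit (y axis, percent) in 6 sets of genes, for the lists as deposited (top) and equal-length lists (bottom), with 1 library per bar and 95% Clopper-Pearson intervals. The clustered histone genes stand at 30.2% in old HSC ABC, 88.9% in old HSC and 30.2% in young HSC in the top panel, and at 23.8% in old HSC ABC, 76.2% in old HSC and 30.2% in young HSC in the bottom one, while proliferation genes stand at 93.8% (15 of 16) in every library, with a different gene unmarked in each.

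Counting each summit once, the clusters held 16 end summits in old HSC ABC, 52 in old HSC and 15 in young HSC. The chromosome 3 cluster held 4 in old HSC ABC, 10 in old HSC and 3 in young HSC. The first chromosome 13 cluster held 4 in old HSC ABC, 17 in old HSC and 2 in young HSC, and the second 8 in old HSC ABC, 25 in old HSC and 10 in young HSC. Of the 52 old HSC summits 24 lay within 1 kb of more than 1 histone gene, and none was near more than 3. Each summit has a score from the authors' peak calling, which is comparable only within its own list. The median score was 4.46 for the old HSC ABC summits, 9.45 for the old HSC summits and 5.85 for the young HSC summits, against whole-list medians of 3.92 in old HSC ABC, 4.09 in old HSC and 4.41 in young HSC. The median histone summit thus stood in the top 42.5% of the old HSC ABC list, the top 16.4% of the old HSC list and the top 35.9% of the young HSC list.

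**Figure D2:**
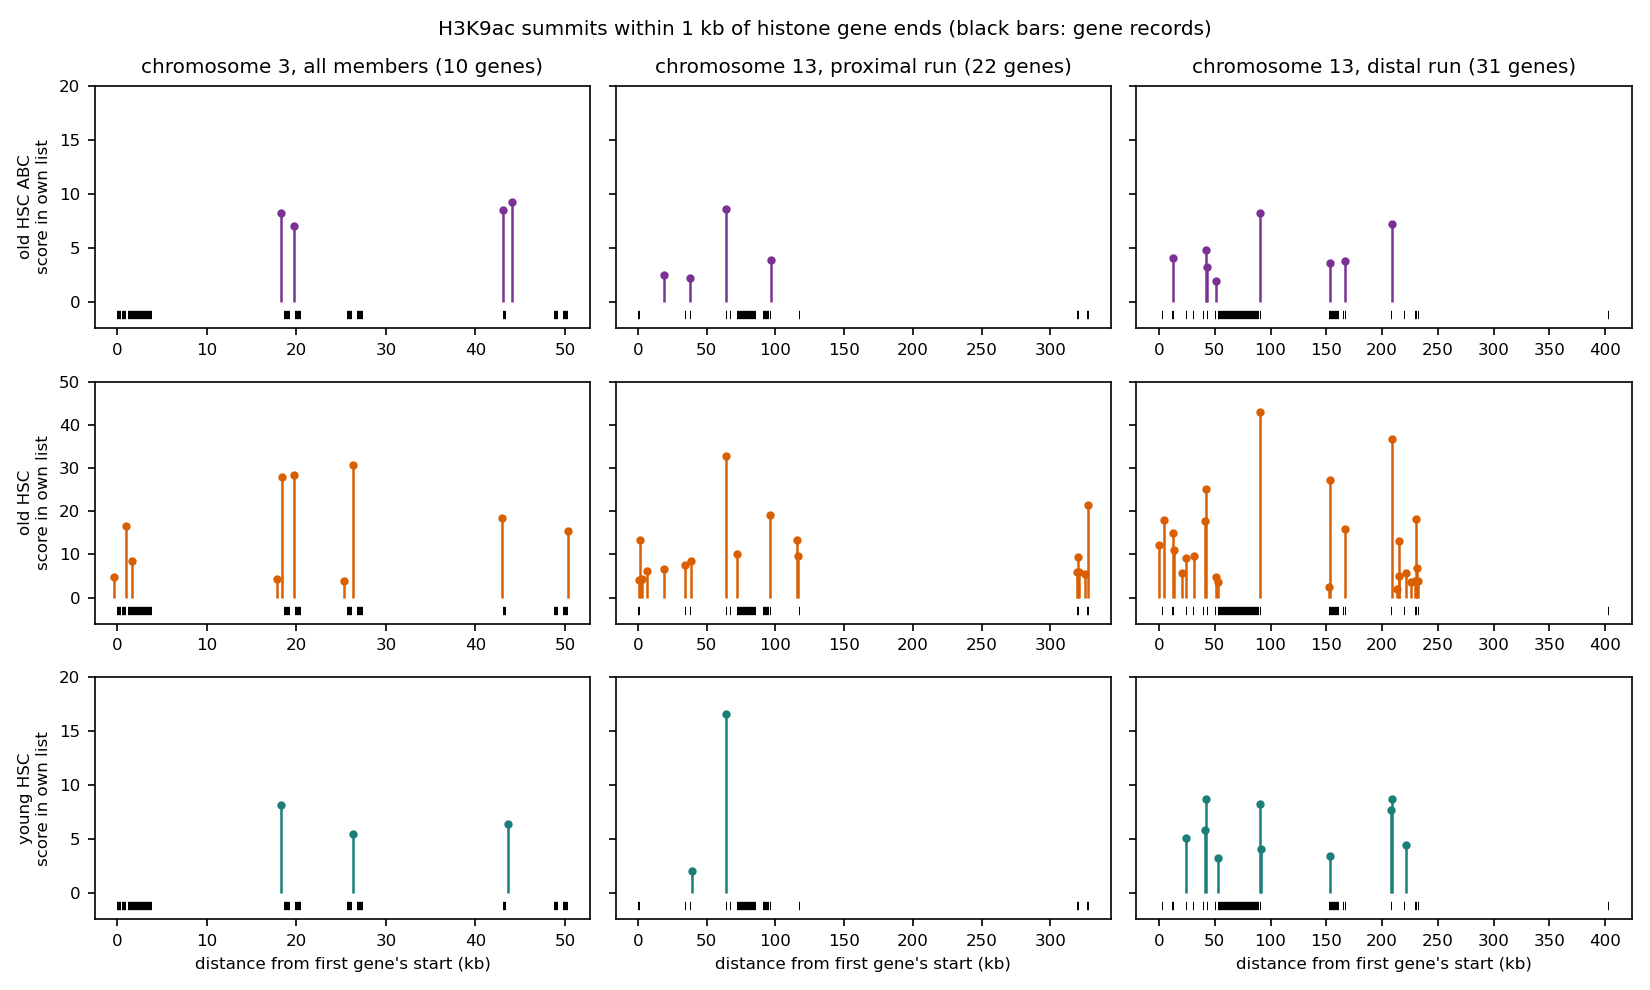
End summits along the 3 clusters (columns) in the 3 libraries (rows), with distance from the first gene's start in kb on the x axis and the score within that library's own list on the y axis, whose scale differs between rows. The old HSC row holds 52 summits, and its tallest (43.0, 36.7 and 32.8) stand at H1 genes on chromosome 13.

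Of the 16 old HSC ABC cluster summits 13 (81.2%) lay within 500 bp of an old HSC summit, against 72.4% of the whole old HSC ABC list. Of the 15 young HSC cluster summits 11 (73.3%) did, against 77.4% of the whole young HSC list. In equal-length lists these shares were 76.9% against 56.1% for old HSC ABC, and 60.0% against 55.8% for young HSC. As deposited, the shares of the cluster summits were within 10 percentage points of those of their whole lists. Conversely, 14 of the 52 old HSC summits had an old HSC ABC neighbour and 12 had a young HSC neighbour, or 26.9% and 23.1%. Of the whole old HSC list 30.3% had an old HSC ABC neighbour and 23.8% a young HSC neighbour. In equal-length lists, 10 of 36 old HSC cluster summits had an old HSC ABC neighbour and 9 of 36 a young HSC neighbour, against 55.5% and 55.1% of the whole old HSC list. With list length equal, the old HSC summits at histone genes had a neighbour in the other libraries less often than the list as a whole. These summits enter through old HSC, the library in which the histone genes are high. Their shares thus largely restate the counts of marked genes, support nothing further and were not tested.

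Old HSC against young HSC is the comparison of ages, as labelled. End summits in old HSC and none in young HSC were found for 37 of the 63 histone genes, or 58.7%, and the reverse for 0. Among all protein-coding genes the corresponding shares were 16.6% and 1.59%. Both libraries marked 19 histone genes and neither marked 7. In equal-length lists 31 genes (49.2%) were marked in old HSC alone and 2, H2ac4 and H3c2, in young HSC alone, against 6.9% and 3.28% of all genes. The difference was mostly not one of summits just outside the window. For 29 of the 37 genes the young HSC list held nothing inside the record or within 5 kb of its ends. Among all protein-coding genes this held for 1685 of the 3632 marked in old HSC and not in young HSC. Those 1685 are 7.7% of all genes. The reverse held for 0 histone genes and 0.11% of all genes. A short record is more easily free of summits inside it, and most histone records are under 1 kb. The shares of histone genes and of all genes are thus not like for like. Short records alone were not counted in this way. By cluster, 5 of 10 genes on chromosome 3, 17 of 22 in the first and 15 of 31 in the second chromosome 13 cluster were marked in old HSC alone. By family these were 1 of 6 H1 genes, 10 of 17 H2A, 9 of 16 H2B, 6 of 12 H3 and 11 of 12 H4 genes. In equal-length lists they were 0 of 6 H1, 10 of 17 H2A, 9 of 16 H2B, 5 of 12 H3 and 7 of 12 H4 genes, so that H4 no longer stood above H2A and H2B.

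As a description, genes were also grouped by the score of their strongest old HSC summit. Genes enter this grouping through old HSC, the library in which the histone genes are high, so nothing is supported by it. At old HSC scores of 10 to 20, 3 of 24 histone genes were also marked in young HSC, or 12.5% (2.66 to 32.4). All other protein-coding genes in that range stood at 80.3% (78.7 to 81.8; 2093 of 2606 genes). Other gene records shorter than 1 kb, like all but 5 of the histone records, stood at 73.3% (44.9 to 92.2; 11 of 15 genes). At scores of 20 or more the values were 78.6% (49.2 to 95.3; 11 of 14) for histone genes and 97.1% for all other genes. At 5 to 10 they were 35.7% (5 of 14) and 35.9%. For 10 or more together, 14 of 38 histone genes (36.8%) were marked in young HSC, and 92.0% of the other genes. Grouped by young HSC score instead, the outcome for histone genes was fixed, since no histone gene was marked in young HSC and not in old HSC. At young HSC scores of 5 to 10, all 12 of them were thus also marked in old HSC, as were 96.0% of the other genes.

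**Figure D3:**
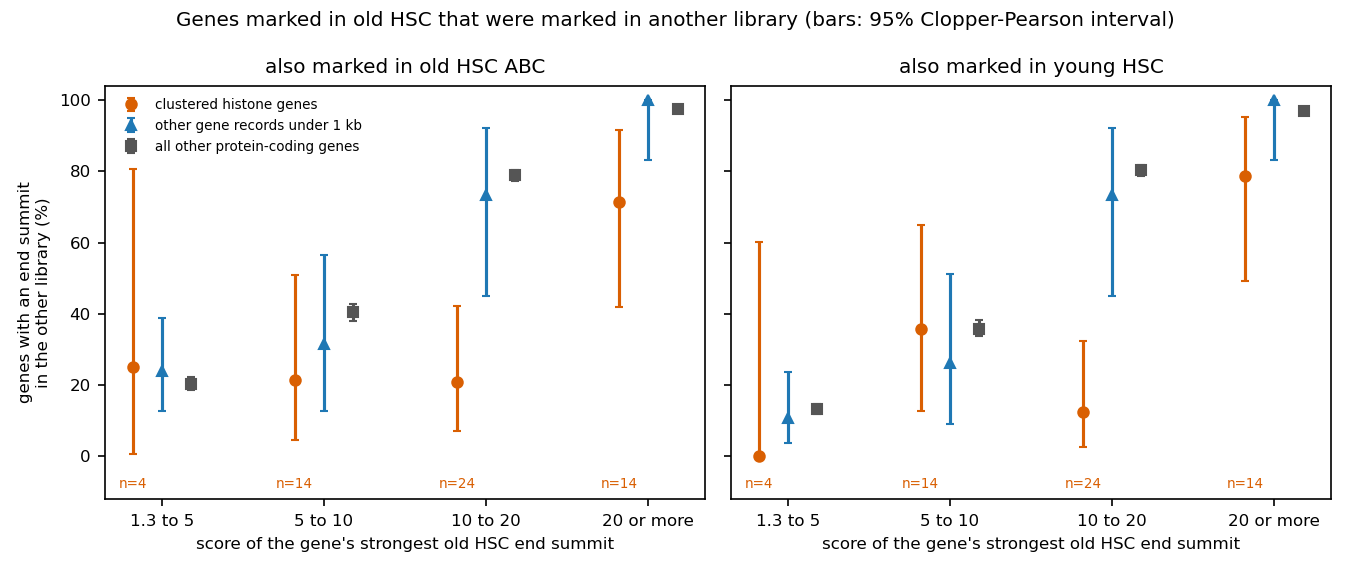
Share of genes marked in old HSC that were also marked in old HSC ABC (left) or young HSC (right) on the y axis, by the score of the gene's strongest old HSC end summit on the x axis, with 95% Clopper-Pearson intervals and the number of histone genes below. At scores of 10 to 20 the histone genes stand at 20.8% for old HSC ABC and 12.5% for young HSC, and all other protein-coding genes at 78.9% for old HSC ABC and 80.3% for young HSC.

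Old HSC ABC was compared with old HSC to see how the ABC library differed among the aged samples. The comparison shares the old HSC library with the comparison above. End summits in old HSC ABC and none in old HSC were found for 0 histone genes, and the reverse for 37 (58.7%), against 2.23% and 15.6% of all genes. In equal-length lists 0 genes were marked in old HSC ABC alone and 33 (52.4%) in old HSC alone, against 3.2% and 8.22% of all genes. For 33 of the 37 genes the old HSC ABC list held nothing inside the record or within 5 kb of its ends. Among all protein-coding genes this held for 1217 of the 3411 marked in old HSC and not in old HSC ABC. Those 1217 are 5.56% of all genes. The reverse held for 0 histone genes and 0.174% of all genes. The limit from record length given above applies here too. At old HSC scores of 10 to 20, 5 of 24 histone genes were also marked in old HSC ABC, or 20.8% (7.13 to 42.2), and 78.9% of all other genes. At scores of 10 or more the shares were 39.5% (15 of 38) and 91.9%. Here too genes enter through old HSC. Grouped by old HSC ABC score the outcome was fixed as well, since no histone gene was marked in old HSC ABC and not in old HSC. All 12 histone genes with an old HSC ABC score below 5 were thus also marked in old HSC, as were 87.4% of other genes. At 5 to 10 it was all 7, and 95.8% of other genes. The genes marked in old HSC and not in old HSC ABC were 2 of 6 H1, 12 of 17 H2A, 9 of 16 H2B, 7 of 12 H3 and 7 of 12 H4 genes. In equal-length lists they were 1 of 6 H1, 12 of 17 H2A, 10 of 16 H2B, 5 of 12 H3 and 5 of 12 H4 genes.

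Old HSC ABC and young HSC marked 19 histone genes each, 12 of them in both. Marked in old HSC ABC alone of this pair were 7 genes, H2ac19, H4c11, H4c17, H2bc9, H3c7, H4c4 and H4c3. Marked in young HSC alone were 7 others, H2ac18, H3c14, H1f3, H2ac8, H2bc8, H2ac4 and H3c2. Each is 11.1% of the members, against 6.43% and 4.78% of all genes. In equal-length lists 5 genes (7.94%) were marked in old HSC ABC alone and 9 (14.3%) in young HSC alone, against 4.7% and 6.09% of all genes. With nothing of the other library inside the record or within 5 kb, they were 3 in old HSC ABC and 5 in young HSC, against 2.53% and 1.27% of all genes. Those shares of all genes again come mostly from longer records. Of the 7 on the old HSC ABC side 4 were H4 genes, and the young HSC side held no H4 gene. In equal-length lists the H4 genes on the old HSC ABC side were 2, since H4c11 and H4c4 dropped out.

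Over the 3 libraries, 12 histone genes were marked in all, 7 in old HSC ABC and old HSC, 7 in old HSC and young HSC, 30 in old HSC alone and 7 in none. Old HSC alone thus held 47.6% of the histone genes, against 11.6% of all protein-coding genes, and none 11.1% against 40.1%. Of all protein-coding genes 36.3% were marked in all 3, against 12 of the 63 histone genes. As deposited, each histone gene marked in old HSC ABC or young HSC was also marked in old HSC. This was common among all genes too. Of them, 8825 were marked in old HSC and young HSC, and 347 in young HSC and not in old HSC. For old HSC ABC these counts were 9046 and 487. The 12 histone genes marked in all 3 had old HSC scores of 8.55 to 43.0 with a median of 27.3. The 30 histone genes marked in old HSC alone had scores of 3.59 to 21.4 with a median of 13.2.

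**Figure D4:**
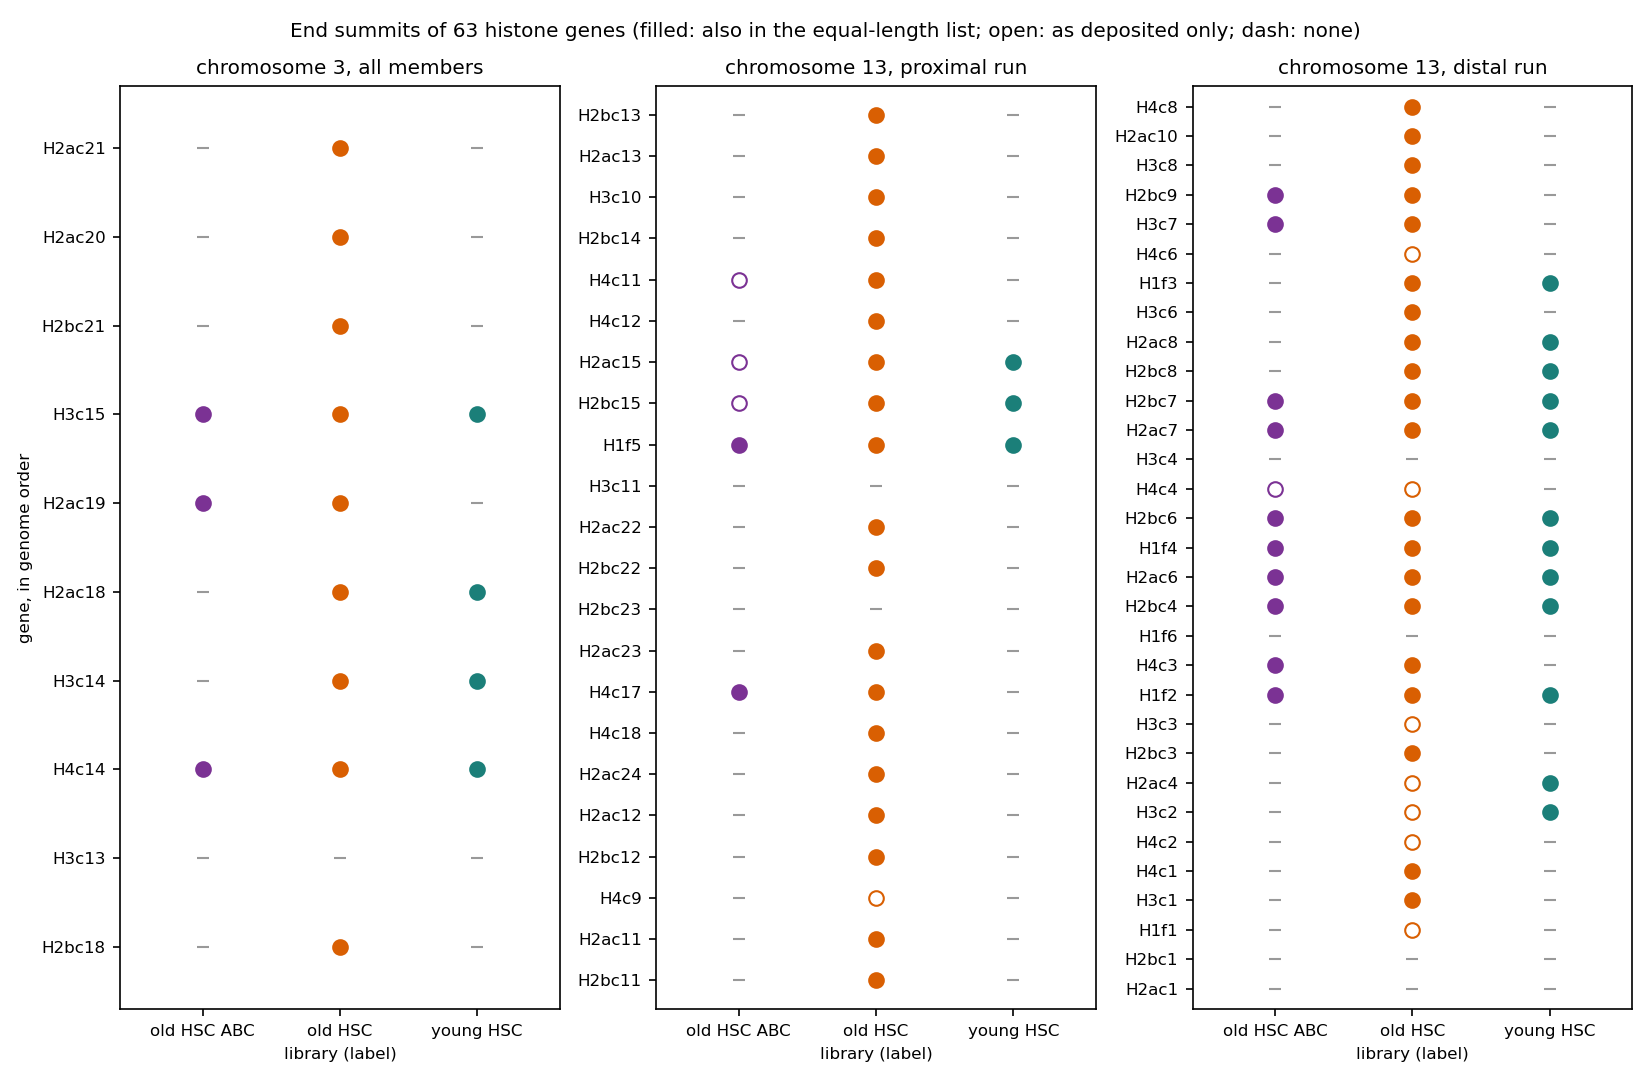
End summits of each of the 63 histone genes (y axis, in genome order) in each library (x axis); a filled circle marks a gene that kept an end summit in the equal-length list, an open circle a gene with one in the list as deposited only, and a dash no end summit. The old HSC column is filled or open for 56 genes, and each other column for 19.

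The promoters below stand for the patterns of marking: an H1 gene marked in every library, the testis H1 gene marked in none, a head-to-head H2A and H2B pair marked in old HSC alone, a pair marked in old HSC and young HSC, and an H4 gene marked in old HSC ABC and old HSC. A marked gene need not have the summit at its promoter, and none of these windows holds the gene's strongest summit. That of H2bc8 lay 543 bp downstream of its start site in old HSC and in young HSC, past the end of the record. Each is the 250 bases before the start site, 5′ to 3′ on the gene's strand, from RefSeq on GRCm38.p6 (mm10). Capitals mark 4 motifs on either strand: the TATA box TATAAA, the CCAAT box CCAAT, the octamer ATTTGCAT known from H2B promoters, and AAACACA, an element known from H1 promoters. Overlapping matches were each counted.
H1f5 (chr13:21780626-21780875, - strand): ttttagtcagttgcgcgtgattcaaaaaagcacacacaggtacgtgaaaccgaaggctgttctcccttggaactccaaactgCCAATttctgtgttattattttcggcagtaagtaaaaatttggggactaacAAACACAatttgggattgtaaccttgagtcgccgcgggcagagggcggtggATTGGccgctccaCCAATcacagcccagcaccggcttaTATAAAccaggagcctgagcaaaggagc
H1f6 (chr13:23695561-23695810, + strand): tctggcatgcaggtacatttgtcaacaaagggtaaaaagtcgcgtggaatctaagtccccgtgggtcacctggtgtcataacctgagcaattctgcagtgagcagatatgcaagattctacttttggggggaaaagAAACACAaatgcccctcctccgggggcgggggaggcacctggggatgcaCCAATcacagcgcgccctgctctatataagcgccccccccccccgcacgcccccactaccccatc
H2bc11, shared with H2ac11 (chr13:22042948-22043197, + strand): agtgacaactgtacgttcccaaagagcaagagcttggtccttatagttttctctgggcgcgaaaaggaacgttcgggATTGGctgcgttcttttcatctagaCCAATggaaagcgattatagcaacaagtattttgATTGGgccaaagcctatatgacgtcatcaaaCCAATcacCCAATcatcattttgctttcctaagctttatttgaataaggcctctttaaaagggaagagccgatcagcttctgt
H2bc8, shared with H2ac8 (chr13:23571150-23571399, + strand): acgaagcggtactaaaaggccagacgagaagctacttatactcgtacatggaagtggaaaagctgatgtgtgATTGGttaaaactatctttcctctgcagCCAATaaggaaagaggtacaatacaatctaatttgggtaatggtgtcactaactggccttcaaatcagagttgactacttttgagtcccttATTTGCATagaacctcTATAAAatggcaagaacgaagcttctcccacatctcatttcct
H4c3 (chr13:23698459-23698708, - strand): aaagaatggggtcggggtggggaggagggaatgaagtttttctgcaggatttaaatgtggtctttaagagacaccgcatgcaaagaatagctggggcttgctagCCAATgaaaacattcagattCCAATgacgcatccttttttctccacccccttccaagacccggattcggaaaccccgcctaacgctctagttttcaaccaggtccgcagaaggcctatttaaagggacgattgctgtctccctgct

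The H1 promoters of H1f5 and H1f6 both carry AAACACA and a CCAAT box at like distances before the start site. Of the 63 genes, 57 had a single promoter in the RefSeq table. CCAAT was found in 47 of these (82.5%), against 33.8% of all 32851 promoters, and in each of the 6 H1, 17 H2A and 13 H2B promoters but in 3 of 11 for H4. TATAAA was found in 28 (49.1%, against 12.4%), of which 4 were among the 7 promoters of unmarked genes, 12 among the 28 marked in old HSC alone and 5 among the 9 marked in every library. ATTTGCAT was found in 6 of 17 H2A and 6 of 13 H2B promoters and in no other family, against 1.6% of all promoters. AAACACA was found in 5 of 6 H1 promoters, against 6.25% of all. It also stood in 2 of 17 H2A and 2 of 13 H2B promoters, and in no H3 or H4 promoter. By state, CCAAT stood in 7 of 7 promoters of genes marked in no library, 22 of 28 marked in old HSC alone and 8 of 9 marked in every library. These matches describe the letters in this window.

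Some members are near-identical copies, and the sources used here do not say how reads that fit several copies were placed. Of the 1596 pairs among the 57 promoters, 5 shared an exact run of at least 50 bases. H4c17 and H4c18 shared 249 bases, H3c15 and H3c14 231, H2ac19 and H2ac18 169, H2ac23 and H2ac24 150, and H4c11 and H4c12 72. For these genes it is uncertain to which copy a summit belongs. This touches the marks at H2ac19, H3c15, H4c17 and H4c11 in old HSC ABC and that at H2ac18 in young HSC, whose copies were unmarked in the same library. In young HSC both H3c15 and H3c14 were marked. Whether the old HSC ABC summit at H2ac19 and the young HSC summit at H2ac18 lie on different copies is thus uncertain. Near-identity within the coding sequences was not analysed here.

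Among the linker histone genes, H1f2, H1f4 and H1f5 were marked in every library, and they held the strongest old HSC summits of the clusters. H1f4 (chromosome 13, 23621777 to 23622558) had scores of 8.25 in old HSC ABC, 43.0 in old HSC and 8.21 in young HSC. The old HSC value was in the top 1.99% of its list, the old HSC ABC value in the top 16.7% and the young HSC value in the top 23.9%. The same summit lay near the end of H2bc6, an H2B gene with a record of 37455 bp. H1f2 (23738807 to 23739531) had 7.25 in old HSC ABC, 36.7 in old HSC and 8.71 in young HSC. H1f5 (21779832 to 21780625) had 8.65 in old HSC ABC, 32.8 in old HSC and 16.6 in young HSC. The young HSC summit of H1f5, in the top 7.47% of its list, was the strongest histone summit of that library. H1f3 was marked in old HSC (9.08) and young HSC (5.08), with the nearest old HSC ABC summit 11695 bp away. H1f1 had a weak summit in old HSC alone (3.86), outside the equal-length list. H1f6, the testis-specific linker histone gene, was marked in no library. Its nearest summits lay 1461 bp from an end in old HSC ABC and in old HSC, and 4789 bp in young HSC.

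Genes for H2A and H2B often stand head to head and share a promoter. Among genes with a single promoter in the RefSeq table there were 9 such pairs, with start sites 164 to 281 bp apart. Neighbours without a single promoter for both genes, such as H2ac6 with H2bc4 and H2ac20 with H2bc21, were not counted as pairs. Both genes of a pair were marked in 2 pairs in old HSC ABC, in 7 in old HSC and in 3 in young HSC, each time by the same strongest summit. That summit need not lie at the shared promoter. In young HSC it lay past the 3′ end of H2bc7, H2bc8 or H2bc15, 736, 543 and 654 bp downstream of their start sites. In old HSC it did so for H2bc7 (753 bp), H2bc8 (543 bp) and H2ac13 (467 bp). In the other marked old HSC pairs it lay inside the H2B record. In old HSC ABC it lay past the end of H2bc7 (781 bp) and inside H2ac15 (67 bp). H2ac11 and H2bc11, at the end of the first chromosome 13 cluster (22042478 to 22042949 and 22043198 to 22043658), shared an old HSC summit of 21.4. It lay 7 bp inside H2bc11, and the nearest summits to H2bc11 were 21323 bp away in old HSC ABC and 7475 bp away in young HSC. H2bc7 and H2ac7 were marked in every library, with shared scores of 4.81 in old HSC ABC, 25.2 in old HSC and 8.69 in young HSC. H2ac8 and H2bc8 were marked in old HSC (17.8) and young HSC (5.85) by a summit at the identical base, 23571943. The nearest old HSC ABC summit to H2bc8 was 1563 bp away. H2ac6 and H2bc4, a further pair of neighbours, were marked in every library, with 3.66 in old HSC ABC, 27.3 in old HSC and 3.41 in young HSC. RefSeq places H2bc4 in a record of 8282 bp, far longer than a histone coding unit. H2ac15 and H2bc15 were marked in every library, with 2.27 in old HSC ABC, 8.55 in old HSC and 2.03 in young HSC. The old HSC ABC value fell outside the equal-length list. Most of the further H2A and H2B genes on chromosome 13 were marked in old HSC alone. H2bc13 and H2ac13, at the start of the first of these clusters, shared an old HSC summit of 13.3 with H3c10. H2ac12 with H2bc12 had 9.31 and H2bc14 had 6.11 in old HSC. The old HSC summit of H2bc3 was in the top 11.5% of its list, and the one shared by H2ac22 and H2bc22 in the top 15.3%. H2bc9 shared with H3c7 a summit of 4.1 in old HSC ABC and 15.0 in old HSC, while H2ac4 was marked in old HSC (5.7) and young HSC (4.5).

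The H2A and H2B genes of the chromosome 3 cluster differed along its length. At its start, H2ac21, H2ac20 and H2bc21 shared an old HSC summit of 16.6, and no old HSC ABC or young HSC summit lay within 14 kb of H2bc21 (14474 bp in old HSC ABC and 14413 bp in young HSC). H2ac19 with H3c15 and H2ac18 with H3c14 are near-identical copies on opposite strands. H2ac19 was marked in old HSC ABC (7.04) and old HSC (28.4), and its nearest young HSC summit was at 1628 bp. H2ac18 was marked in old HSC (30.7) and young HSC (5.45), and its nearest old HSC ABC summit was at 5847 bp. H2bc18, at the far end (96269700 to 96270192), was marked in old HSC alone with 15.5.

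For H3, 2 of 12 genes were marked in old HSC ABC, 9 in old HSC and 3 in young HSC. H3c15 was marked in every library, with 8.26 in old HSC ABC, 28.4 in old HSC and 8.19 in young HSC, and its strongest old HSC summit was the one of H2ac19. H3c14 was marked in old HSC (30.7) and young HSC (5.45) through the summit it shares with H2ac18. H3c8 (23535418 to 23535909) and H3c1 (23761885 to 23762386) had old HSC scores of 17.9 and 18.3, and no summit of either other library lay within 5 kb. H3c6 (9.58) and H3c3 (4.94) were marked in old HSC alone too. H3c13, H3c11 and H3c4 were marked in no library. The nearest old HSC summit was 1110 bp from H3c13, 3112 bp from H3c11 and 2309 bp from H3c4. H3c2 was the reverse case in equal-length lists, with 5.7 in old HSC, outside its equal-length list, and 4.5 in young HSC, inside it.

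Of the H4 genes, 5 of 12 were marked in old HSC ABC, 12 in old HSC and 1 in young HSC. In equal-length lists the counts were 3 in old HSC ABC, 8 in old HSC and 1 in young HSC. H4c14 on chromosome 3 was the gene marked in every library, with 9.23 in old HSC ABC, 18.5 in old HSC and 6.41 in young HSC. The strongest summits of H4c14 did not coincide, lying at 96263919 in old HSC ABC, 96262889 in old HSC and 96263495 in young HSC. H4c3 had a summit at the same base, 23698006, in old HSC ABC (3.8) and old HSC (15.9), and its nearest young HSC summit was 2876 bp away. H4c17 had 3.92 in old HSC ABC and 19.2 in old HSC. H4c11 had 2.49 in old HSC ABC and 6.58 in old HSC, and H4c4 had 1.93 in old HSC ABC and 4.88 in old HSC, with a young HSC summit at 1579 bp. H4c1 (18.3), H4c18 (13.4) and H4c8 (12.2) were marked in old HSC alone, with the nearest summits of the other libraries over 5 kb away. H4c12 had 7.46 in old HSC alone. H4c2 (3.59), H4c9 (5.42) and H4c6 (5.74) were weaker and fell outside the old HSC equal-length list.

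The remaining unmarked genes were H2bc23 and the pair H2bc1 and H2ac1, the testis variants of H2B and H2A. H2bc1 and H2ac1 stand apart at the far end of the second chromosome 13 cluster. The nearest summits to H2bc1 were 89661 bp away in old HSC ABC, 6486 bp in old HSC and 89803 bp in young HSC. All 3 testis genes, H1f6, H2bc1 and H2ac1, were thus unmarked in all 3 libraries. Near the edge of the window, H2ac10 counted as marked by an old HSC summit at 900 bp that lies closer to H3c8, and H2ac24 and H2ac23 by summits at 863 and 872 bp that lie closer to H4c18 and H4c17. H2ac7 counted by summits at 927 bp in old HSC and 910 bp in young HSC that lie closer to H2bc7. The young HSC summit of H2ac15, at 818 bp, lies closer to H2bc15.

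For most genes marked in several libraries the summits lay close together. Of the 19 genes marked in old HSC and young HSC, the strongest summits lay within 100 bp of each other for 12, with a median distance of 64.0 bp. Of the 19 marked in old HSC ABC and old HSC it was 13, with a median of 28.0 bp. Start sites were taken from the RefSeq promoter table for genes with a single promoter there. In the 3 H1 genes marked everywhere, the strongest summit lay past the 3′ end of the record in every library. In H1f5 it lay at 815 in old HSC ABC, 822 in old HSC and 820 in young HSC (bp downstream of the start site). In H1f4 these distances were 897 in old HSC ABC, 877 in old HSC and 856 in young HSC, and in H1f2 888 in old HSC ABC, 940 in old HSC and 852 in young HSC. Weaker young HSC summits lay 2 bp from the start site of H1f2 (7.73) and inside the record of H1f4 (4.05). In contrast to these strongest H1 summits, all 7 H3 genes that were marked in old HSC and had a single promoter had their strongest old HSC summit upstream of the record. The other libraries did not show this, with 0 of 1 such H3 gene upstream in old HSC ABC and 1 of 3 in young HSC.

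Over all families the strongest summit lay past the 3′ end in 9 of 15 genes in old HSC ABC (60.0%), 18 of 49 in old HSC (36.7%) and 9 of 16 in young HSC (56.2%). In other gene records under 1 kb it did so in 16.0% in old HSC ABC, 25.6% in old HSC and 23.1% in young HSC. A summit past one histone gene can lie upstream of the next, as that of H2ac18 does for H3c14, so these places describe the summit and do not assign it to a gene.

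**Figure D5:**
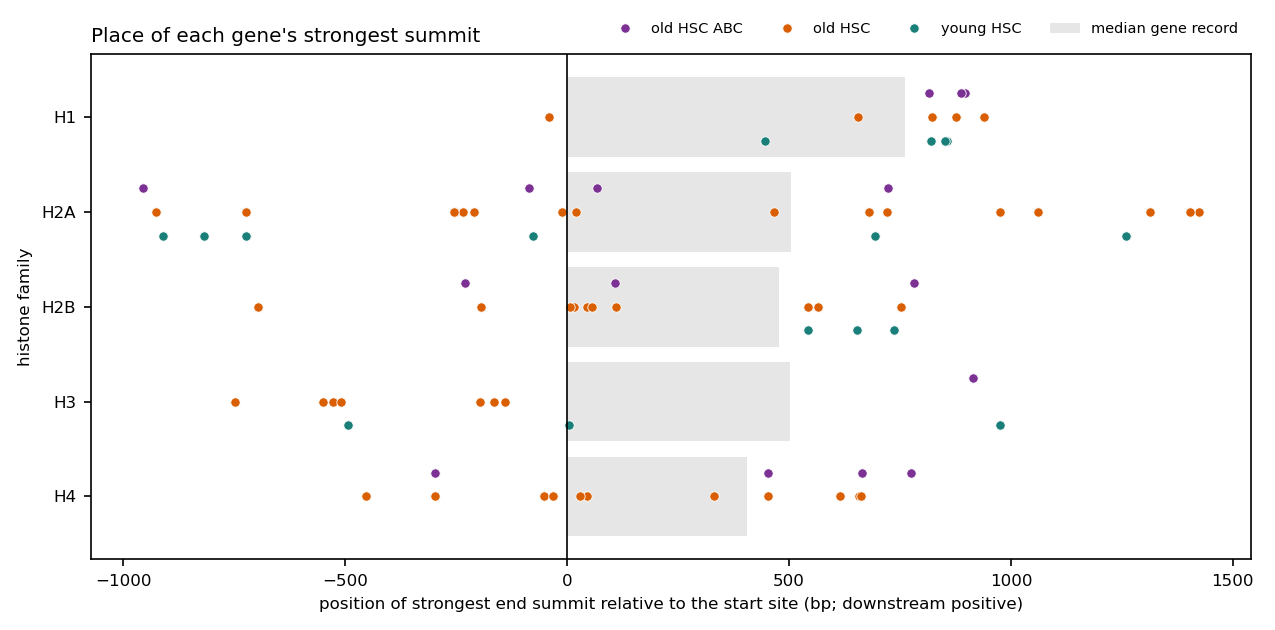
Position of the strongest end summit of each histone gene relative to its start site (x axis, bp, downstream positive), by family (rows) and library (colours); the grey bar is the median length of the records under 1 kb. The H1 summits of H1f2, H1f4 and H1f5 lie at 815 to 940 bp, past the end of the record, and all 7 old HSC summits of H3 genes lie upstream.

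Other genes of the histone pathway were counted in the same way. Of 11 histone genes listed as replication-independent, 9 were marked in old HSC ABC, 11 in old HSC and 9 in young HSC. In equal-length lists the counts were 8 in old HSC ABC, 8 in old HSC and 9 in young HSC. H3f3b, which encodes the variant H3.3, had scores of 12.4 in old HSC ABC, 39.6 in old HSC and 5.2 in young HSC. H2az2, an H2A.Z gene, had 29.8 in old HSC ABC, 75.1 in old HSC and 31.3 in young HSC. Of 24 genes for histone gene transcription, message processing and chaperones, 17 were marked in old HSC ABC, 23 in old HSC and 19 in young HSC, and in equal-length lists 16 in old HSC ABC, 21 in old HSC and 19 in young HSC. Npat, the coactivator of histone genes, had scores of 16.3 in old HSC ABC, 57.0 in old HSC and 19.2 in young HSC. Slbp, which binds the histone stem-loop, had 4.89 in old HSC ABC, 27.9 in old HSC and 9.68 in young HSC. Ccne1, a cyclin E gene whose kinase acts on NPAT, had an old HSC summit alone (5.41), with a score below those kept in the old HSC equal-length list. Ccne2, the other cyclin E gene, was marked in every library, with 5.24 in old HSC ABC, 12.0 in old HSC and 6.86 in young HSC. Of 16 proliferation genes 15 were marked in each library, in both list settings. The unmarked gene was Rrm2 in old HSC ABC, Ccna2 in old HSC and E2f1 in young HSC, so the equal share does not show an unchanged set. The 9 other protein-coding genes inside the clusters were marked in 4 cases in old HSC ABC, 5 in old HSC and 2 in young HSC, and in equal-length lists in 3 in old HSC ABC, 3 in old HSC and 2 in young HSC. Zfp184, a zinc finger gene in the first chromosome 13 cluster, had scores of 20.7 in old HSC ABC, 55.2 in old HSC and 14.2 in young HSC. Differences between these sets and the clustered histone genes were not tested.

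The labelled cell type was checked by the same measure. Of 15 HSC genes, 8 were marked in old HSC ABC, 13 in old HSC and 10 in young HSC. Old HSC scores of the neutrophil and monocyte genes ran from 6.68 to 508.0, against a median of 18.9 for all genes marked in that list. Old HSC was also the library in which the histone genes were most often marked. S100a8 had 23.2 in old HSC ABC, 508.0 in old HSC and 65.0 in young HSC, and S100a9 had 15.9 in old HSC ABC, 414.0 in old HSC and 70.3 in young HSC. Ngp had 2.1 in old HSC ABC, 141.0 in old HSC and 20.8 in young HSC. Camp had no end summit in old HSC ABC, 96.7 in old HSC and 14.7 in young HSC, and Retnlg was marked in old HSC alone (48.2). The other genes of this set had lower old HSC scores, of 6.68 (Ltf), 8.57 (Elane), 10.5 (Mpo), 18.9 (Csf1r) and 25.7 (Ly6c2). Of 6 B cell genes 1 was marked, in old HSC alone. Of 7 T and NK cell genes 2 in old HSC ABC, 2 in old HSC and 0 in young HSC were marked, of 7 erythroid genes 3 in old HSC ABC, 3 in old HSC and 2 in young HSC, and of 6 stroma and endothelium genes 1 in old HSC ABC, 2 in old HSC and 0 in young HSC. Of 10 genes of other tissues 0 in old HSC ABC, 7 in old HSC and 0 in young HSC were marked as deposited, and 0 in old HSC ABC, 1 in old HSC and 0 in young HSC in equal-length lists. In equal-length lists 8 in old HSC ABC, 9 in old HSC and 10 in young HSC of the HSC genes were marked, and 6 in old HSC ABC, 10 in old HSC and 7 in young HSC of the neutrophil and monocyte genes. The part of neutrophils and other cells in the histone summits was not tested.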

How the data were processed

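H3K9ac CUT&Tag summits of 3 libraries were used, 1 per group, grouped by the labels' titles. Ages and cell numbers are from the labels' protocol, with y and o in the titles read as young and old. The tools named, per the submitters' processing notes, were BWA, Picard, MACS2 and edgeR, with mm10 as the build. Their roles, versions and settings, any control library and the read depth are not stated in any source used here, so depth is unknown. The authors' deposited score was read as a −log10 q-value, since every list starts at 1.3, the −log10 of 0.05. It was used within a list only.

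Members were matched by symbol in the RefSeq gene table of GRCm38.p6, and genes less than 500 kb apart formed a cluster. Members, lists and named genes were chosen with earlier results of these data known. Named by rule were the 3 strongest genes per cluster and library, genes whose state differed between libraries in both list settings, unmarked genes, H1 genes and cluster ends; the other members are named to complete the families. Start sites and promoters came from the RefSeq promoter table. The end-summit count was tested on simulated data. Shares have exact 95% Clopper-Pearson intervals. No test was possible. H3f5 and Symplk of the pathway lists had no matching record. Python 3.11.15, pandas 2.3.3, NumPy 2.4.6 and SciPy 1.17.1 were used.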

Additional observations from a re-analysis of the deposited data

How the results depend on the processing

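The excess of old HSC over young HSC held under every alternative run: 37 genes were marked in old HSC alone as reported, and 29 to 39 under the other settings counted by gene. The excess over old HSC ABC was 37 as reported and 31 to 45. With genes less than 2 kb apart taken as 1 unit (33 units), 12 units were marked in old HSC ABC, 31 in old HSC and 11 in young HSC. The units differing were 20 for old HSC alone against young HSC, 19 for old HSC alone against old HSC ABC, and, between old HSC ABC and young HSC, 4 in old HSC ABC alone and 3 in young HSC alone. At scores of at least 5, old HSC ABC marked 7 genes with 7 summits, and 1 gene was marked in it and not in young HSC. At scores of at least 10, old HSC ABC marked 0 genes with 0 summits and young HSC 1 gene with 1 summit, while old HSC held 24 summits. Between old HSC ABC and young HSC, 0 genes were then marked in old HSC ABC alone and 1 in young HSC alone. These minimums fall at other ranks in each list. In equal-length lists 2 genes were marked in young HSC and not in old HSC, and within 500 bp of an end it was 1. Marked in old HSC ABC and not in old HSC was 1 gene within 500 bp and 1 within 2 kb. With nothing allowed inside the record or within 5 kb, 3 genes were marked in old HSC ABC and absent from young HSC. Of the young HSC cluster summits 100% had an old HSC neighbour within 1000 bp, against 73.3% within 500 bp. Windows on the start site alone and genes added by older symbol were alternatives chosen after seeing the data. No paired analysis was possible because each group has 1 library.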

Other observations

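Some histone records of the same regions carry other symbols now and so are not among the 63 genes. H2aw (older symbol Hist3h2a, an H2A gene, chromosome 11, 58954685 to 58955192) had end summits in every library, with strongest scores of 10.9 in old HSC ABC, 34.1 in old HSC and 16.8 in young HSC. The old HSC and young HSC summits lay 24 and 25 bp from an end of the record, at neighbouring bases. Its neighbour H2bu2 (Hist3h2ba, an H2B gene, 58948911 to 58949372) was marked in none, with the nearest summits 5745 bp away in old HSC ABC, 5844 bp in old HSC and 5845 bp in young HSC. H4bc24 (Hist1h2br) on chromosome 13 was marked in none, with the nearest old HSC summit at 1582 bp.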
